A study of Mus musculus with 2 samples.

Results

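Gastric-like epithelial cells were chosen from 2 single-cell libraries of mouse pancreatic tumours by the transcripts they carried. A barcode, which stands for 1 cell, was kept with at least 1000 unique molecular identifiers (UMIs, each standing for 1 captured RNA molecule), at least 500 genes and at most 20% mitochondrial UMIs. It counted as epithelial with at least 5 UMIs of Krt8, Krt18, Krt19 and Epcam together, and as gastric-like when the trefoil factors Tff1 and Tff2 and the gastrokines Gkn1, Gkn2 and Gkn3 made up at least 1% of its UMIs. Barcodes with 5 or more UMIs of the goblet cell genes Muc2 and Spink4, with any UMI of Cd79a, Cd3e or Pecam1, or with more than 2 UMIs of C1qa, C1qb and C1qc were left out. Of 36662 kept barcodes, 468 met the rule, of which 208 came from the vehicle library and 260 from the takinib library.

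The tumours were pancreatic tumours of KPPC mice aged 6 weeks, treated over 14 days. One group was given vehicle, and the other was given the compound takinib (50 mg/kg). Takinib inhibits TAK1, the kinase encoded by Map3k7 that links inflammatory receptors to NF-kB and to the JNK and p38 kinases. KPPC is the name of a mouse model of pancreatic cancer. The labels do not spell out the alleles, the Cre driver, or the number of mice in a library, and both groups carry the same name. Each group had 1 library, so no difference between vehicle and takinib has a replicate check, no test was made, and the 95% intervals cover counting error only.

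The gastric lining is renewed into surface mucous (pit) cells, which secrete Tff1, the gastrokines Gkn1 and Gkn2 and the mucin Muc5ac, and mucous neck cells, which secrete Tff2 and the mucin Muc6. Trefoil factors are small, protease-resistant peptides that act with mucins to protect and repair the mucosa. Pancreatic ducts and early pancreatic neoplasia can take on gastric programmes of this kind.

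The libraries differed in more than treatment. Kept barcodes had a median of 3594.5 UMIs in vehicle and 3049.5 in takinib, and a median mitochondrial share of 8.68% and 1.84%. Neutrophil reference cells, with at least 5% of their UMIs from S100a8 and S100a9, numbered 50 in vehicle and 7984 in takinib. The vehicle library held 3204 barcodes with Y-linked UMIs and no Xist and 1120 with Xist and no Y-linked UMI, whereas no kept takinib barcode held a Y-linked UMI. The deposited takinib matrix listed no barcode under 500 UMIs, while the vehicle matrix listed empty ones too. The libraries shared 400 kept barcode sequences, none of them gastric-like in both. Treatment, sex, depth and software cannot be told apart in these data.

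The genes behind the rule lie in 2 clusters, and the promoters of the gastrokines are shown because the 3 genes are neighbours that the cells below carried in different proportions. In GRCm38, Tff2 (chr17:31141049-31144282, minus strand) lies 17.1 kb from Tff1 (chr17:31161395-31165277, minus strand). On chromosome 6, Gkn1 (chr6:87345650-87350942, minus strand) is followed after 22.4 kb by Gkn2 (chr6:87373357-87379497, plus strand), which is 3.8 kb from Gkn3 (chr6:87383256-87388935, minus strand). Muc6 and Pgc, genes of neck and chief cells described below, are shown for comparison. Each sequence is the 250 bases before the start given by RefSeq (GRCm38.p6), and of 10 genes looked up 5 were matched in that table. Capitals mark the letters searched for on both strands. For GATA factors these were AGATAA, and as the other form that was searched for, TGATAA. For forkhead factors the search used TGTTTAC, and as the other form that was searched for, TGTTTGC. For the factor AP-1 the letters were TGANTCA, and for the box near the start of many genes they were TATAAA. No marked stretches overlapped.
Gkn1 (chr6:87350916-87351165, minus strand): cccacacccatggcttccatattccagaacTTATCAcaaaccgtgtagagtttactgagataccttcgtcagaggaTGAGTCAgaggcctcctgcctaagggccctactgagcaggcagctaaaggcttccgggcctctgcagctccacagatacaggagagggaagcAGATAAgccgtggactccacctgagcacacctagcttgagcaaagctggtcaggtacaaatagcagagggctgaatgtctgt
Gkn2 (chr6:87373115-87373364, plus strand): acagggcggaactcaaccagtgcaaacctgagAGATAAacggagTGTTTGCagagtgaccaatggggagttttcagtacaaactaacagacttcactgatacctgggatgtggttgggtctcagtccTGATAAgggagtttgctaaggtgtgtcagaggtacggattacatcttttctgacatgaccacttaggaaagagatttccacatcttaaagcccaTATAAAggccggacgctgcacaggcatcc
Gkn3 (chr6:87388936-87389185, minus strand): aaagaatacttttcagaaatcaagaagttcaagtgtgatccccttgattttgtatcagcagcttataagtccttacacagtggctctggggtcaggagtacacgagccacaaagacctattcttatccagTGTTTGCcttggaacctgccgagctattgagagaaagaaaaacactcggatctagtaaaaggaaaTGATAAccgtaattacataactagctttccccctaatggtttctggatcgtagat
Muc6 (chr7:141655394-141655643, minus strand): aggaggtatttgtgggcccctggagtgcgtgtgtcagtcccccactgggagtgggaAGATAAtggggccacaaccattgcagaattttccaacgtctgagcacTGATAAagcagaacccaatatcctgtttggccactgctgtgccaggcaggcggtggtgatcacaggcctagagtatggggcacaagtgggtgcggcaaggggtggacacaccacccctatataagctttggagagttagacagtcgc
Pgc (chr17:47726592-47726841, plus strand): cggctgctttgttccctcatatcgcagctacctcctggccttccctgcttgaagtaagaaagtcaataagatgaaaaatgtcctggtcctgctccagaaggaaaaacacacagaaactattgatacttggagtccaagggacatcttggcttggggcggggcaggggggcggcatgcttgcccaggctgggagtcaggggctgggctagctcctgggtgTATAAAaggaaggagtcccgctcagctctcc

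The GATA letters were present upstream of Gkn1, Gkn2, Gkn3 and Muc6, and 16.6% of all 32851 promoter windows of that length held them. The forkhead letters were present upstream of Gkn2 and Gkn3 and in 7.29% of all windows. AP-1 letters stood upstream of Gkn1 (6.75% of all windows), and those of the box upstream of Gkn2 and Pgc (12.4%). These are letter matches in short windows and describe no binding.

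Gastric-like cells made up a similar part of the epithelial barcodes in both libraries. They were 208 of 1366 in vehicle, or 15.2% (exact binomial interval 13.4 to 17.2), and 260 of 1573 in takinib, or 16.5% (14.7 to 18.5). Of all kept barcodes they were 2.11% (1.83 to 2.41) in vehicle and 0.971% (0.857 to 1.10) in takinib, a library in which neutrophil reference cells alone were 29.8% of kept barcodes. Within the vehicle library, they made up 17.9% (12.7 to 24.3) of epithelial barcodes with Xist only and 14.1% (11.5 to 17.0) of those with Y-linked UMIs only, so the cells were present in both sexes. Their median depth was 6626.5 UMIs in vehicle and 9192.5 in takinib.

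The rule genes set the membership and are given as a description. Tff1 was at 13749 CPM (summed counts of the cells, scaled to a common UMI total) in vehicle (exact Poisson interval 13567 to 13932) and at 22469 (22292 to 22647) in takinib. Tff2 stood at 23442 CPM (23205 to 23681) and 24361 (24177 to 24546). Gkn1 was at 3993 and 8218 CPM, Gkn2 at 1438 and 5968, and Gkn3 at 4659 and 4475. The surface mucous genes Tff1, Gkn1 and Gkn2 were thus higher in the takinib sum, while Tff2 and Gkn3 stood close to each other in the 2 libraries. Single cells carried much of some sums, as 1 cell gave 31.7% of the vehicle and 1 cell 31.3% of the takinib Gkn1 counts, and without the highest cell Gkn2 was at 980 and 3897 CPM. The rule genes were not particular to these cells. Goblet-like cells, 66 vehicle and 41 takinib epithelial barcodes left out for Muc2 and Spink4, held the 5 genes at 53673 and 49480 CPM together. The gastric-like cells held them at 47280 and 65490 CPM.

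Membership was a cut through a continuous range. The 5 rule genes made up a median of 2.52% of a cell's UMIs in vehicle, from 1.00% to 34.1%, and 4.53% in takinib, from 1.01% to 40.6%. Just inside the limit, at 1% to 1.5%, were 41 vehicle and 38 takinib cells, with medians of 1.16% and 1.13%. Just outside, at 0.5% to 1%, were 68 and 87 epithelial barcodes, with medians of 0.704% and 0.706%.

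Free RNA of these genes was present in other cells. Macrophage reference cells (at least 10 UMIs of C1qa, C1qb and C1qc and no keratin or Epcam UMI), which should lack the genes, held a Tff1 UMI in 24.8% of 2739 vehicle cells (median 4049 UMIs) and 27.9% of 3070 takinib cells (median 6919 UMIs). Their summed level of the 5 genes was nevertheless 193 and 128 CPM, against 47280 and 65490 CPM in the gastric-like cells. Vehicle barcodes under 100 UMIs, most of which hold no cell, had 2122 CPM. Muc5ac, which the rule did not use, was found in 16.8% of vehicle and 27.7% of takinib gastric-like cells, and in 0.548% and 0.619% of macrophage reference cells.

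Markers of gastric mucous cells that the rule did not name were present, as the label would have it. Dmbt1, a mucosal scavenger receptor protein, had a UMI in 205 of 208 vehicle and 245 of 260 takinib cells, at 7904 and 9567 CPM. It was not particular to them, as 60.3% of vehicle and 69.7% of takinib other epithelial cells also held a Dmbt1 UMI. In macrophage reference cells the shares were 29.5% and 22.3%. Muc5ac, the mucin of surface mucous cells, was at 193 CPM (172 to 216) and 374 (351 to 398). Muc6, the mucin of neck cells, was at 594 CPM (557 to 633) and 1414 (1370 to 1459). Vsig1, an adhesion protein of the gastric epithelium, was at 120 and 123 CPM, and Ctse, the aspartic protease cathepsin E, at 2252 and 2568 CPM.

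Markers of other gastric, intestinal and pancreatic lineages were present in part. For chief cells, the enzyme-secreting cells of the gastric gland, Pgc (pepsinogen C) was present but Lipf (gastric lipase) was at 0 in both libraries, and Pga5 had 0 and 5 counts. The 7 chief cell genes summed to 922 and 3715 CPM, against 11.4 and 36.1 in other epithelial cells. In goblet-like cells they summed to 660 and 2311 CPM. Cblif, the intrinsic factor gene, had 166 counts in vehicle that all came from 1 cell, and 482 in takinib that came from 3 cells. Pgc was also concentrated, since 1 vehicle cell gave 78.6% and 1 takinib cell 43.5% of its counts. Kcne2 and Slc26a7, genes of acid-secreting parietal cells, were at 0 in both libraries, and Atp4b, a subunit of the gastric proton pump, had 0 and 1 counts. The 6 parietal genes still summed to 855 and 555 CPM, nearly all from the carbonic anhydrase gene Car2, which ducts also express (850 and 549 CPM), against 224 and 237 in other epithelial cells. The parietal sums of goblet-like cells were 785 and 596 CPM. The 9 enteroendocrine genes summed to 4.39 and 5.83 CPM, against 83.4 and 441 CPM in other epithelial cells. Cdx1 and Cdx2, the intestinal transcription factors, were at 0 in both, and the 13 intestinal genes summed to 498 and 777 CPM, above the 297 and 111 CPM of other epithelial cells. Of 11 measured intestinal genes in vehicle, 3 were past a log2 ratio of 1 higher than in other epithelial cells and 1 lower (median -0.29). In takinib 4 of 10 were past 1 higher and none lower (median 0.79). Over all genes with at least 10 counts, 2.13% were past 1 higher and 5.3% lower in vehicle, and 1.42% and 2.17% in takinib. The intestinal sums of goblet-like cells were 7423 and 598 CPM. Ptf1a and Pnlip of pancreatic acinar cells were at 0 in both, while the 11 acinar genes summed to 636 and 865 CPM, mostly from Cela1 and Ctrb1, against 844 and 1630 in other epithelial cells.

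Compared with the other epithelial cells (1092 vehicle and 1272 takinib barcodes under the 1% limit), the gastric-like cells had higher levels of Pgc, Muc5ac, Muc6, Mucl3, Psca and Agr2 and lower levels of Fn1, Hmga2, Fbln2 and Cdkn2a in both libraries. Ratios are log2 of the CPM + 10 in one class over the CPM + 10 in the other, within a library, and since the members were chosen on readouts of these cells the comparison is a description. Outside the rule genes, 274 genes (2.65%) were past 1 higher and 738 (7.15%) lower in vehicle, and 196 (1.65%) higher and 327 (2.76%) lower in takinib. In both libraries, 128 of 10177 genes (1.26%) were higher by more than 1 on that scale and 250 (2.46%) lower.

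Pgc, a pepsinogen, led the higher genes in the sums of all cells. Pgc had a log2 ratio of 5.52 in vehicle and 6.58 in takinib, from 815 against 7.99 CPM and from 3534 against 27.1 CPM. Without its highest cell Pgc was still at 175 CPM in vehicle and 2014 CPM in takinib, but its lead in vehicle rested on that cell. Muc5ac stood 4.01 and 4.64 higher, Muc6 3.69 and 4.73, and the mucin-like Mucl3 3.94 and 4.83. Psca, a GPI-anchored surface protein of the gastric epithelium, was at 156 against 1.83 CPM in vehicle and 342 against 5.48 in takinib, although 1 cell gave 72.7% of the vehicle counts. Agr2, the disulfide isomerase needed for mucin folding, had ratios of 3.21 and 4.30. Cblif ranked among the highest too (3.49 and 4.18) but rested on the 1 and 3 cells named above.

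Less typical genes were also among the 12 highest. Npy, a neuropeptide, was at 1434 CPM against 89.2 in vehicle and 973 against 112 in takinib. Mcpt2, known as a mast cell protease, was at 572 against 59.1 CPM and 680 against 57.8, and as a member of a multigene family its counts may be split among copies. Anxa10, an annexin of gastric epithelium, had ratios of 2.84 and 2.90, Cela1, an elastase, 3.19 and 2.67, and Clca1, a secreted protein of mucus-producing cells, 4.31 and 3.10. For Clca1, single cells gave 61.1% of the vehicle and 48.6% of the takinib counts.

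Among the lower genes, Fn1, which encodes fibronectin, was at 125 CPM against 5138 in vehicle and 118 against 1009 in takinib. Hmga2, a chromatin protein of fetal and tumour tissue, was at 8.78 against 248 CPM and 9.48 against 206. The basement membrane gene Fbln2 had log2 ratios of -4.16 and -4.01, the galectin Lgals1 -3.78 and -3.22, the protease inhibitor Timp1 -3.07 and -3.86, and the small heat-shock protein gene Hspb1 -3.09 and -3.01. Igfbp7 (-2.95 and -2.98) and Ctla2a (-3.31 and -2.95) completed the 8 lowest. Cdkn2a, which encodes the cell-cycle inhibitors p16 and p19Arf, was at 147 CPM (129 to 167) against 880 (859 to 901) in vehicle and at 162 (147 to 178) against 450 (440 to 460) in takinib. It was not at 0: 82 of 208 vehicle and 134 of 260 takinib gastric-like cells held a Cdkn2a UMI.

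**Figure D1:**
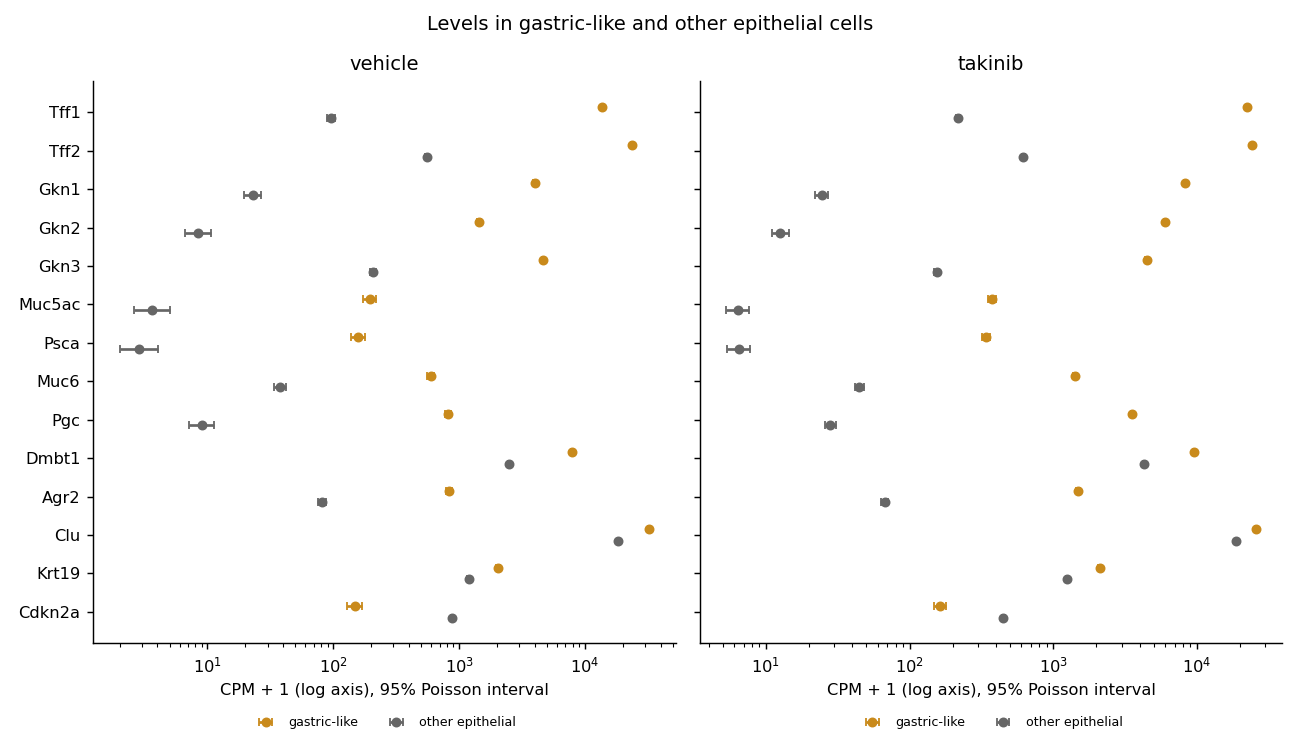
Levels of rule genes (Tff1 to Gkn3), gastric genes, Clu, Krt19 and Cdkn2a in gastric-like cells (orange) and other epithelial cells (grey), as CPM + 1 of summed counts on a log axis; bars are exact 95% Poisson intervals and many are narrower than the points. Muc5ac, Psca, Muc6, Pgc and Agr2 lie far to the right in gastric-like cells of both libraries, and Cdkn2a lies to the left (147 and 162 CPM against 880 and 450).

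Gene lists were read beside all genes with at least 10 counts, whose median ratio was -0.18 in vehicle and -0.14 in takinib. Of those genes, 2.13% were past 1 higher and 5.3% lower in vehicle, and 1.42% and 2.17% in takinib. Of the surface mucous genes outside the rule, 5 of 5 measured in vehicle and 5 of 6 in takinib were past 1 higher, with medians of 2.84 and 2.42. Of 8 mucous neck and metaplasia genes, 4 were past 1 higher in each library and 1 lower in vehicle (medians 1.30 and 0.91). Of 14 measured genes of mucin glycosylation, 6 were past 1 higher and 3 lower in vehicle (median 0.88), and of 15 in takinib 4 were higher and 1 lower (0.61). Gcnt3, which branches mucin glycans, was at 339 against 58.4 CPM and 267 against 82.9. Galnt6, which starts mucin O-glycans, was at 102 against 6.81 CPM and 70.7 against 12.2.

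Gastric and foregut transcription factors were present with ratios mostly above 0. Of 16 measured, 3 in vehicle and 5 in takinib were past 1 higher and none lower, with medians of 0.59 and 0.45. Spdef, a regulator of mucous secretion, had ratios of 1.66 and 1.56, and Foxq1, a forkhead factor of gastric mucous cells, 1.46 and 1.10. Gata4 was at 33.9 against 14.0 CPM in vehicle and 34.3 against 11.3 in takinib. Sox2, a factor of the normal stomach, had 2 and 3 counts in all gastric-like cells, and the pancreatic and antral factor Pdx1 was at 17.6 and 23.3 CPM with ratios of 0.10 and 0.05.

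Immediate-early genes and NF-kB targets were lower than in the other epithelial cells of the same library. All 18 immediate-early genes measured had ratios below 0 in both libraries, 12 of them past -1 in vehicle (median -1.46) and 2 in takinib (-0.65). NF-kB targets had medians of -0.64 and -0.72, with 5 past -1 in each. Proliferation genes had medians of -0.33 and -0.60, and glycolysis and hypoxia genes -0.36 and -0.68. Epithelial defence genes went the other way, with 7 and 5 of 16 past 1 higher and 3 lower in each library (medians 0.77 and 0.70). Interferon response genes had medians of 0.26 and 0.32, with 0 of 14 past 1 in vehicle and 4 of 16 in takinib. Among genes of that list, single takinib gastric-like cells gave 88.5% of Ifit3, 83.5% of Rsad2, 67.1% of Ifit1 and 52.6% of Isg15 counts. S100a8 and S100a9, the neutrophil genes, summed to 23.2 CPM in gastric-like against 82.0 in other epithelial cells of vehicle, and 7488 against 12539 in takinib. Their part in these differences was not tested.

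The gastric-like cells were not uniform. In each cell, the surface mucous part of the rule genes was taken as the UMIs of Tff1, Gkn1 and Gkn2 over those of all 5 genes. In vehicle, 139 of 208 cells had under 20%, 54 had 20% to 80% and 15 had above 80%. In takinib these numbers were 115, 45 and 100 of 260. The takinib cells were concentrated at both ends, with 95 at 0% to 10% and 83 at 90% to 100%, whereas vehicle had 114 and 6. The ranges are cuts of a score and not cell types, and 19 vehicle and 15 takinib cells lay at 15% to 25%, and 6 and 8 at 75% to 85%. Many cells held both kinds of transcript: with each cell thinned to 1000 UMIs, at least 1 UMI of both surface mucous genes (Muc5ac included) and neck genes (Tff2, Gkn3, Muc6) was found in 66.3% of vehicle and 71.5% of takinib cells, against 85.6% and 90.4% unthinned. As macrophage reference cells also held these UMIs, a single UMI may be free RNA, and with at least 3 UMIs of each after thinning the shares were 41.8% and 43.5%.

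**Figure D2:**
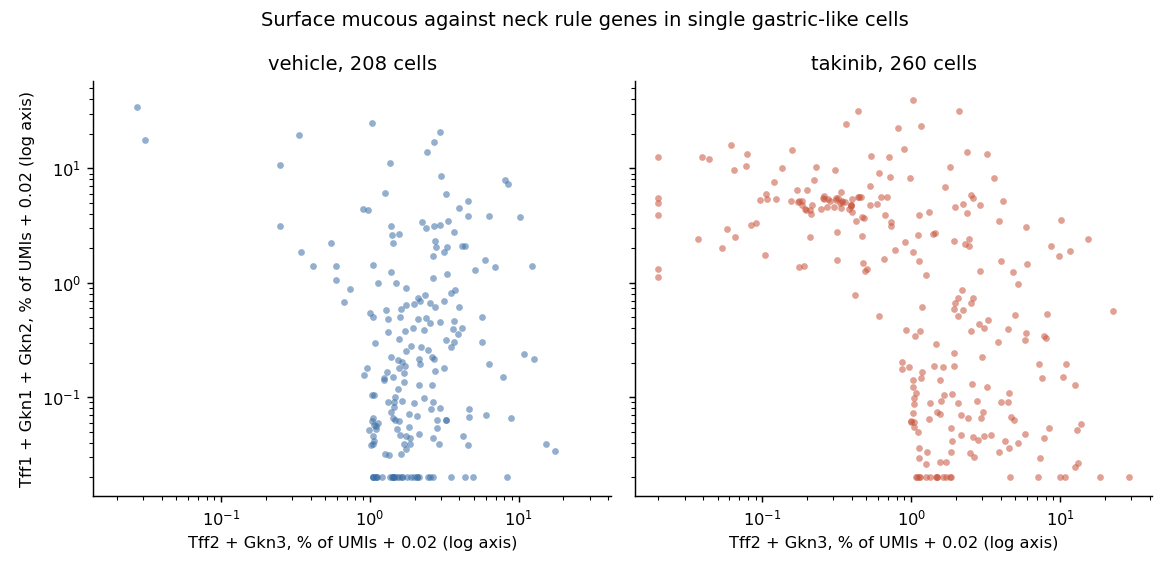
Each point is 1 gastric-like cell; the horizontal axis is the share of its UMIs from Tff2 and Gkn3 and the vertical axis the share from Tff1, Gkn1 and Gkn2, both in percent + 0.02 on log axes. Vehicle cells lie mostly at the right with few surface mucous UMIs (139 of 208 under 20%), while takinib has a second dense set at the upper left (100 of 260 above 80%).

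Genes that the ranges did not use also differed between them, though not all genes of a list did. Values are for cells under 20% and then above 80%. The vehicle group above 80% had only 15 cells and 115688 UMIs. Over all genes with at least 10 counts, 5.62% were past 1 higher and 20.4% lower above 80% in vehicle, and 3.13% and 2.42% in takinib. Of surface mucous genes outside the rule, 3 of 5 in vehicle and 5 of 6 in takinib were past 1 higher above 80%, and of the neck and metaplasia genes 4 of 7 and 4 of 8 were past 1 lower. Ctse had ratios of 0.85 and -0.19, and the neck list's Clu -0.25 and -0.37 and Wfdc2 -0.04 and 0.13.

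Muc5ac and Psca were among the genes high above 80%. Muc5ac went from 15.7 to 916 CPM in vehicle and from 10.7 to 1172 in takinib, and the intervals of the 2 ranges did not overlap in either library. Psca had 1 count in the cells under 20% of each library and was at 2083 CPM in 9 of 15 vehicle and 1129 CPM in 64 of 100 takinib cells with UMIs above 80%. In vehicle 1 cell gave 72.7% of all Psca counts. Cldn18, which has a stomach-specific tight junction form, was at 23.1 and 510 CPM in vehicle and 32.0 and 327 in takinib. Klf4, a transcription factor of differentiated surface epithelium, was at 84.9 and 501, and at 67.1 and 466. Lypd8, a secreted protein that binds flagellated bacteria, was at 23.1 and 813, and at 24.4 and 948. Duoxa2, the maturation factor of the peroxide-producing oxidase Duox2, was at 63.9 and 925, and at 110.6 and 301.

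Muc6 and other genes were high under 20%. Muc6 was at 915 CPM in vehicle cells under 20% and at 0 of 115688 UMIs above 80% (interval to 31.9 CPM), and at 2764 and 181 in takinib. Pgc was at 1335 and 25.9 in vehicle, where 1 cell gave most of its counts, and at 7006 and 273 in takinib. The water channel Aqp5 was at 255 CPM and 0 in vehicle and at 256 and 45.4 in takinib. Dmbt1 was at 10648 and 1616, and at 15632 and 1846. The C-type lectins of pancreatic and gut injury followed it: Reg1 was at 5273 and 216, and at 10558 and 699, and Reg3b at 2697 and 0, and at 6353 and 205. Agr2 was at 1007 and 346, and at 2583 and 380. All Cblif counts of both libraries lay in cells under 20%.

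**Figure D3:**
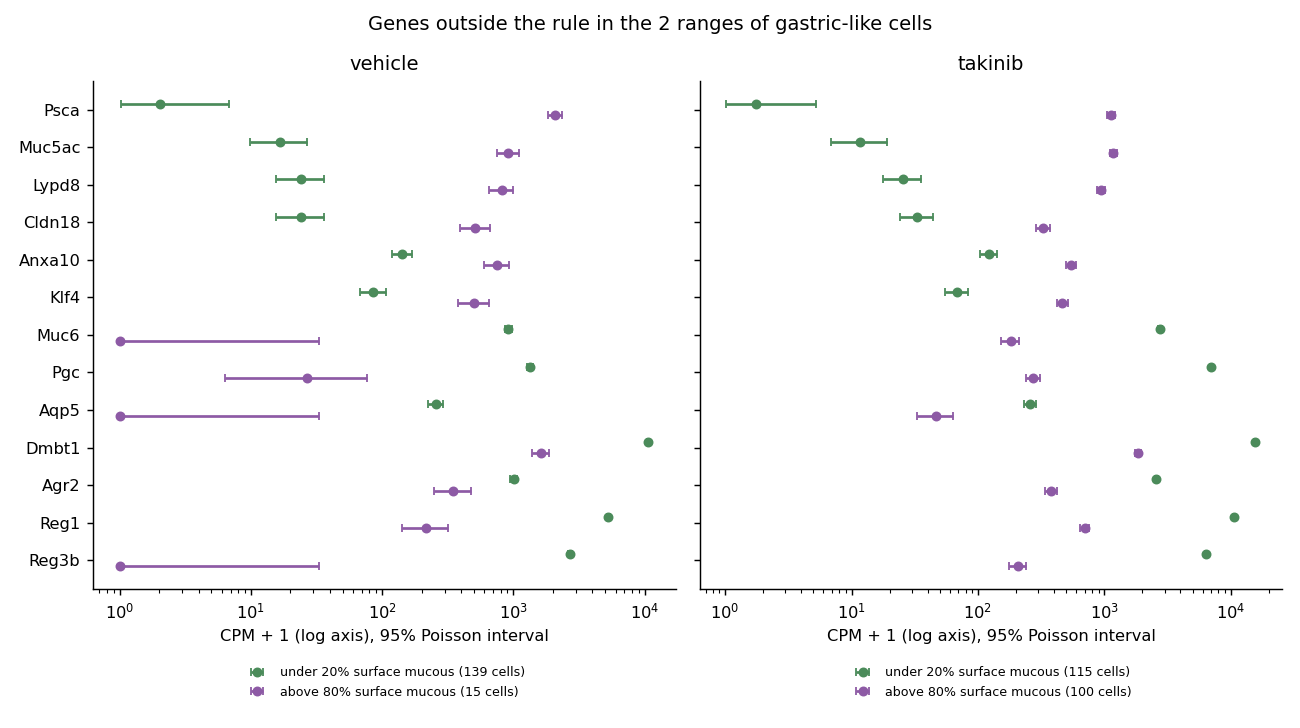
Genes outside the rule in gastric-like cells with under 20% (green) and above 80% (purple) surface mucous UMIs among the rule genes, as CPM + 1 on a log axis with exact 95% Poisson intervals. In both libraries Psca to Klf4 lie higher above 80% and Muc6 to Reg3b higher under 20%, with a gap between the intervals for each gene.

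Depth differed between the ranges in takinib and must be read beside the 100 cells above 80%. Their median depth was 2167.5 UMIs, against 10081 under 20%, while in vehicle the medians were 7442 and 5617. Of 56 takinib members with under 2000 UMIs, 49 were above 80%, and vehicle had 5 such members in all, 2 of them above 80%. Among members with at least 5000 UMIs, 40 of 174 takinib cells (23.0%) and 11 of 133 vehicle cells (8.27%) were above 80%. The 49 shallow takinib cells were alike in their rule genes, with a quartile range of 4.93% to 5.73% of UMIs, whereas the 40 deep ones spread from 3.28% to 13.3%. Muc5ac was at 945 CPM in the shallow and 1167 in the deep cells, Psca at 630 and 1226, and Krt18 at 493 and 1972. S100a8 and S100a9 were a median of 1.83% of the UMIs of the shallow cells and 0.0346% of the deep ones. Whether the shallow takinib barcodes are intact cells was not tested, and they are among the 260 members, the 16.5% share and the 100 above 80%. With at least 2000 UMIs and 1000 genes, 201 cells remained in each library, or 15.7% (13.8 to 17.9) of epithelial barcodes in vehicle and 13.8% (12.1 to 15.7) in takinib. The part of depth and of neutrophil transcripts in the larger takinib range was not tested.

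The comparison of takinib with vehicle asks how gastric-like tumour epithelium looked under a TAK1 inhibitor. Of 6088 genes with at least 50 counts in a library, 266 (4.37%) were past a log2 ratio of 1 higher and 88 (1.45%) lower in takinib. The deeper takinib sum lets that count limit admit lower CPM values there, and with at least 50 CPM in a library, a limit set after the data were seen, the numbers were 163 and 59. In other epithelial cells 356 of 11986 genes (2.97%) were higher and 268 (2.24%) lower.

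Transcripts abundant in neutrophils led the higher genes. S100a8 had 18 counts in vehicle and 11209 in takinib (11.3 and 4085 CPM), S100a9 19 and 9336, and Cxcl2, a neutrophil-attracting chemokine, 14 and 6361. Lcn2, an iron-carrier-binding protein of neutrophils and inflamed epithelium, was at 20.1 and 1570 CPM. Ccl3, Ccl4, Retnlg, Wfdc17, Cstdc4 (one of a family of near-identical genes) and Ifitm1 made up the rest of the 10 highest, with 732 to 2452 counts in takinib and at most 27 in vehicle. In the takinib neutrophil reference cells S100a8 stood at 77502 CPM, Cxcl2 at 25054 and Lcn2 at 12248. All 10 neutrophil markers were past 1 higher in gastric-like cells, with a summed level of 28.2 CPM in vehicle, where 5 of the 10 were at 0, and 8420 CPM in takinib. Of the 266 higher genes, 187 were more abundant in the takinib neutrophil reference than in the takinib gastric-like cells. An alternative took away a neutrophil share of every gene, scaled by the S100a8 and S100a9 UMIs of the cells (5.10% of UMIs in takinib). Under it 198 of the 266 were still past 1. The reference was chosen by S100a8 and S100a9, which also set the scale, so the 198 cannot be taken as free of neutrophil RNA. Cxcl2 was still at a log2 ratio of 5.90 after it and Il1b, at 5853 CPM in the reference, at 3.37. Whether other neutrophil transcripts were fully removed was not tested.

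Immediate-early genes and NF-kB targets, 2 lists known to respond to TAK1 signalling, had medians above 0. Beside a median of -0.08 over all 11800 genes with at least 10 counts, of which 2.58% were past 1 higher and 0.958% lower, 11 of 17 immediate-early genes were past 1 higher and none lower (median 1.81). Fos was at 61.5 and 446 CPM. Egr1 was at 24.5 and 226 CPM, and Dusp1, a MAP kinase phosphatase, at 13.8 and 307 CPM. Jun was at 82.8 and 315 CPM. Fosb had 8 counts in 7 vehicle cells and 289 counts in 83 takinib cells, and was no more abundant in the neutrophil reference (98.9 against 105 CPM). Fosb was 1 of only 2 such genes, and 15 of the 17 were more abundant in the neutrophil reference, where Fos stood at 775 CPM, Egr1 at 990, Dusp1 at 2144 and Jun at 779. After the subtraction 11 of 17 were past 1, with a median of 1.69. In other epithelial cells, where 2.26% of all genes were past 1 higher and 1.7% lower, 8 of 18 were past 1 (median 0.94). The part of neutrophil RNA was not tested beyond the subtraction, and whether the 2 classes differ was not tested.

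Of 21 NF-kB targets measured, 10 were past 1 higher and none lower (median 0.92). Nfkbia, which encodes the inhibitor IkB-alpha, was at 28.2 and 288 CPM, Tnfaip3, the ubiquitin-editing inhibitor A20, at 11.9 and 77.6, and Il1b at 16.3 and 544. Nfkb1 (57.1 and 46.7 CPM), Nfkb2 (21.3 and 19.0) and Bcl3 (53.3 and 29.5) were not among them. Of the 21, 19 were more abundant in the neutrophil reference, and after the subtraction 7 were past 1, with a median of 0.67. The part of neutrophil RNA in the rest was not tested. In other epithelial cells 11 of 22 NF-kB targets were past 1 higher and none lower (median 1.01).

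The 4 genes of the TAK1 complex had a median of -0.23, and none was past 1 in either direction. Map3k7 itself, the target of takinib, was at 28.9 CPM (21.1 to 38.5) in vehicle and 18.2 (13.5 to 24.0) in takinib, from 46 and 50 counts. Tab1, an activating subunit, was at 15.1 and 9.11 CPM. Tab2 and Tab3, the subunits that bind ubiquitin chains, were at 93.5 and 94.4 and at 8.16 and 7.29 CPM. Takinib acts on the kinase protein, so RNA levels do not show whether the kinase was inhibited.

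The surface mucous list had 3 of 9 genes past 1 higher, namely Gkn1, Gkn2 and Psca, with a median of 0.71. Tff1, Gkn1 and Gkn2 also set the membership, so of the 3 only Psca lies outside the rule. The median of the list is itself the ratio of Tff1, a rule gene. Within cells under 20% alone, an alternative chosen after the data were seen, the median of the list was -0.055. Gkn1 was at -0.055 and Psca at -0.038, but Gkn2 was still at 1.59. That range was cut by a low part of Tff1, Gkn1 and Gkn2, so these values cannot show whether the list differed between the libraries. Psca rested on 1 count in each library there. Muc6 had a log2 ratio of 1.24 over all cells and 1.58 within cells under 20%, and for Pgc the ratio within those cells was 2.38. Reg3b was at 1700 and 3544 CPM, and Reg1 at 3396 and 6261. Cftr, the chloride channel of ducts and glands, went the other way, from 442 to 206 CPM (log2 ratio -1.07), and within cells under 20% its ratio was -0.45. The transcription factor Onecut2 was at 978 and 472 CPM.

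Among genes past 1 that were no more abundant in neutrophils, a set singled out after the values were seen, several rested on few cells. S100g had 707 takinib counts, of which 99.2% came from 1 cell, and single cells gave 83.5% of the Rsad2 and 57.9% of the Aldh3a1 counts. Spread over many cells were Prap1, a secreted proline-rich protein (146 and 1412 CPM, with UMIs in 142 takinib cells), Mmp7, the protease matrilysin (72.2 and 621 CPM, 115 cells), Wnt4, a Wnt ligand (24.5 and 124 CPM, 113 cells), and Cldn4, a tight junction protein (11.3 and 86.0 CPM, 61 cells). Prap1 and Mmp7 were also higher in other takinib epithelial cells, at 1.31 and 229.6 CPM for Prap1 and at 268 and 1626 CPM for Mmp7.

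The 10 lowest were Pyy, Mgp, Timp3, Asz1, St8sia3, Igfbp7, Bgn, H2-Ab1, Ltbp4 and Rgs5, with ratios from -2.07 to -1.58. St8sia3, a sialyltransferase, was at 250.3 and 57.2 CPM, and the peptide hormone gene Pyy at 45.8 and 3.28 CPM. Mgp, a matrix protein, was at 207 and 42.3 CPM, but single cells gave 56.1% of the vehicle and 97.4% of the takinib counts. Of 6 MHC class II genes measured, which present antigen to CD4 T cells, 4 were past 1 lower and none higher (median -1.49). Cd74 was at 192 and 63.8 CPM while H2-Ab1 had 99 and 33 counts, and single vehicle cells gave 50.3% of the Cd74 and 60.6% of the H2-Ab1 counts. Without the highest cell H2-Ab1 was at 24.8 CPM in vehicle, against 62.1 with it, and at 8.08 in takinib. Cd74 was then at 96.5 and 47.0 CPM, H2-Aa at 29.2 and 9.54, and H2-Eb1 at 21.0 and 6.24. With each cell thinned to 1000 UMIs, the log2 ratio of Cd74 was 0.17. Fibroblast markers summed to 605 and 298 CPM, with Postn at 0 in takinib, and macrophage markers to 368 and 557. Their part in the lower genes was not tested.

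Among the other lists, 4 of 9 intestinal genes were past 1 higher and 1 lower (median 0.94), with Tff3, a trefoil factor of goblet cells, at 9.41 and 54.7 CPM. Fabp1 and Fabp2 were among the 4, but single takinib cells gave 90.2% of the Fabp1 and 65.3% of the Fabp2 counts. Without the highest cell of each library Fabp1 was at 1.26 and 1.84 CPM and Fabp2 at 5.66 and 9.54 CPM. The 6 erythroid genes summed to 0 CPM in vehicle and 102 in takinib. All 17 glycolysis and hypoxia genes had ratios above 0, but only Bnip3 and Egln3 were past 1 (median 0.54). Of 17 proliferation genes, Stmn1 and Mcm6 were past 1 lower and none higher (median -0.32), and Mki67 was at 40.2 CPM (30.9 to 51.3) and 28.8 (22.8 to 35.9). Against vehicle cells with Xist only, 33 cells, the proliferation median was 0.38. Interferon response genes had a median of 0.30, with 4 of 15 past 1 higher, and single takinib cells gave 88.5% of Ifit3 and 67.1% of Ifit1 counts. Genes of the secretory pathway and the unfolded protein response had a median of -0.09, with 0 of 16 past 1. Of 16 epithelial defence genes, 6 were past 1 higher (median 0.68). They included Lcn2, described above, and Ltf, the iron-binding lactoferrin of neutrophil granules and secretions (49.6 and 237 CPM), which stood at 791 CPM in the takinib neutrophil reference. The neutrophil list was at 28.2 and 8420 CPM in the same cells, and its part in the defence list was not tested. None of 8 EGFR ligands was past 1, and 1 of 14 genes of TAK1-linked cell death and survival was.

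**Figure D4:**
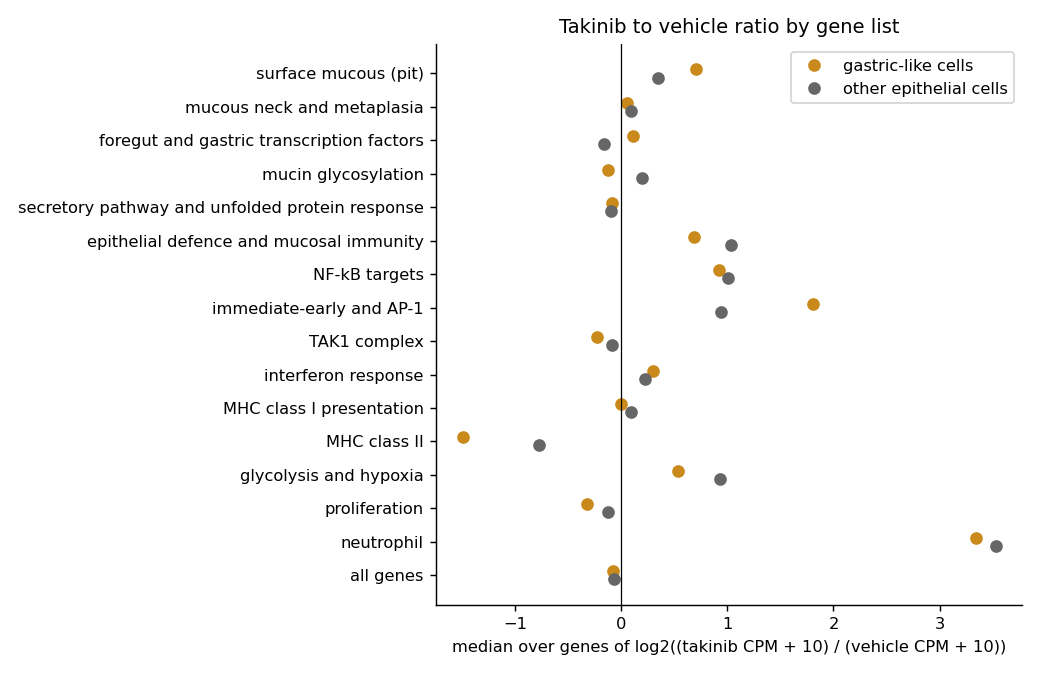
Median over the genes of each list of log2((takinib CPM + 10) / (vehicle CPM + 10)), for gastric-like (orange) and other epithelial cells (grey), with 1 library per group and no test. In gastric-like cells the neutrophil list is highest (3.34), followed by the immediate-early list (1.81), and MHC class II lowest (-1.49), and the median of all genes is -0.08.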

How the data were processed

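The deposited matrices of the authors hold UMI counts per gene and barcode, whole numbers that are not normalized. Per the file headers they were written by Cell Ranger 4 (vehicle) and 6.1.1 (takinib). The submitters' processing notes name Cell Ranger 2.1.1, STAR 2.0.4b, featureCounts 1.45 and mm10, and the versions disagree. The annotation and the kit chemistry are not given in the sources used here.

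The members, gene lists and rules were chosen with earlier results of these data known. Counts were summed per library and class with Python 3.11.15, numpy 2.4.6, scipy 1.17.1 and pandas 2.3.3, scaled to CPM and compared as log2 ratios with 10 CPM added. A gene was compared with at least 50 summed counts, and in lists with at least 10. The text names examples of each of 30 lists, the 10 highest and 10 lowest takinib to vehicle ratios, and the 12 highest and 8 lowest ratios to other epithelial cells in the library nearer 0, without rule, ribosomal, mitochondrial, haemoglobin, immunoglobulin and sex-linked genes and unnamed gene models. Intervals are exact Poisson and Clopper-Pearson. The computation was tested on simulated data.

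Doublets were kept in the main values and removed as an alternative with Scrublet in scanpy 1.11.5. Its own threshold marked 3.18% of vehicle barcodes and 0.00373% of takinib barcodes, so in takinib the highest 6% of scores were removed, and 7 members were lost in each library. Gene positions are from GENCODE M21 on GRCm38 and promoters from RefSeq GRCm38.p6.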

Additional observations from a re-analysis of the deposited data

Results flagged for a closer look

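Lypd8 had a log2 ratio of takinib to vehicle of 1.99 in gastric-like cells, from 97.9 to 418 CPM, and of -3.01 in other epithelial cells, from 185 to 14.2 CPM. The classes moved in opposite directions by more than 1, and the difference was not tested. In gastric-like cells 36 vehicle and 61 takinib cells held the gene. Within the ranges Lypd8 was at 23.1 CPM in vehicle and 24.4 in takinib under 20% surface mucous, and at 813 and 948 above 80%, where vehicle had 15 cells and takinib 100.

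Outside the rule, 171 takinib barcodes had at least 1% of their UMIs from the 5 rule genes and under 5 UMIs of keratins and Epcam, against 7 vehicle barcodes. They were 0.638% (0.546 to 0.741) of kept takinib and 0.0709% (0.0285 to 0.146) of kept vehicle barcodes. The takinib barcodes were shallow, with a median of 1453 UMIs, 164 of them held 1 to 4 keratin or Epcam UMIs, and 159 were above 80% surface mucous. Their rule genes made up a median of 5.13% of UMIs, Muc5ac stood at 867 CPM, and S100a8 and S100a9 at a median of 1.84% of UMIs. Whether they are intact cells was not tested.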

How the results depend on the processing

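No paired analysis was possible because each group had 1 library. Of the values recomputed under alternative settings, 7 changed sign after a main value past a limit. The limit was a log2 ratio of 1 for a gene and counting error for a list median. Sign changes of smaller main values are not in the 7. For values and counts that answer a comparison, 115 stayed close to the main value and 42 moved. Causes were not tested. With a trefoil limit of 0.5%, gastric-like cells were 20.2% of vehicle and 22.1% of takinib epithelial barcodes, with 2% they were 9.30% and 12.5%, and with at least 2000 UMIs and 1000 genes they were 13.8% in takinib. The share was 17.9% among vehicle cells with Xist only.

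The NF-kB median was 1.09 and 1.13 at trefoil limits of 0.5% and 2%, 0.80 with a keratin sum of 10 and also with 2000 UMIs, 1.12 against Xist-only vehicle cells, 1.24 and 0.45 with 1 and 50 CPM added, 1.63 after thinning, 0.67 after neutrophil subtraction and 1.22 in cells under 20% surface mucous. The immediate-early median was 2.00 at a limit of 2%, 1.69 without neutrophil-rich barcodes and after subtraction, 1.65 against Xist-only cells, 1.92 and 1.44 with 1 and 50 CPM added, and 2.25 after thinning. Both medians were above 0 in 16 of 16 settings. The TAK1 complex median was 0.037 against Xist-only cells.

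Genes higher and lower in takinib numbered 525 and 142 against Xist-only cells, 97 and 18 with 50 CPM added and 96 and 25 after thinning. Lower genes numbered 54 at 10% mitochondrial UMIs, 200 with 1 CPM added and 51 with at least 100 counts, and higher genes 163 with at least 50 CPM. Against other epithelial cells, lower genes numbered 1657 in vehicle and 1392 in takinib with 1 CPM added. With 50 CPM added, 98 were higher and 192 lower in vehicle, and 73 and 63 in takinib. After thinning 84 and 78 were higher.

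Of the 7 sign changes, a proliferation median of 0.38 and Clca1 at 1.80 were against Xist-only cells. Cd74 was at 0.17 after thinning and S100a9 at -0.11 after subtraction. In cells under 20% the surface mucous median was at -0.055, Gkn1 at -0.055 and Psca at -0.038. Those cells were cut by a low part of Tff1, Gkn1 and Gkn2, and Psca had 1 count in each library there. Outside the 7, the TAK1 complex median, -0.23 in the main setting, was above 0 in 1 of 16 settings. The mucous neck and metaplasia median, 0.05 in the main setting, was above 0 in 12 of 16. The settings of at least 50 CPM, cells under 20% alone and range shares at 5000 UMIs were chosen after seeing the data.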
